A study of Mus musculus with 15 samples.

Results

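Macrophage gene expression was examined in whole aortas through 10 genes, selected by symbol from the 24982 gene symbols counted in each library: Mrc1, Lyve1, Cd163, F13a1, Adgre1, Csf1r, Cd68, Trem2, C1qa and C1qb. RNA-Seq had been performed on 15 aortas, 1 library per aorta, from male C57BL/6 mice of the wild type, 10 months old. All 15 mice received aldosterone at 200 µg/kg per day by osmotic minipump with 0.9% NaCl and 0.2% KCl in the drinking water (Aldo-salt) for 7 days, started 2 weeks after surgery. The control group (n = 5) was sham-operated, the orchiectomized group (n = 5) had its testes removed, and the DHT group (n = 5) was orchiectomized and carried a pellet of dihydrotestosterone (DHT), the androgen that testosterone is converted to in many tissues. No mice without Aldo-salt were analysed here, so each value describes aortas already exposed to aldosterone and salt.

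Macrophages in the artery wall are of more than one kind. Resident macrophages sit mainly in the adventitia, renew themselves locally or slowly from the blood, and carry scavenger receptors such as CD206, LYVE1 and CD163. Others arise from blood monocytes that enter through the receptor CCR2 during inflammation, and nearly all depend on signals through the CSF1 receptor. A bulk library cannot separate them: a lower level of a macrophage gene can come from fewer macrophages or from less of that RNA in each, and these cannot be told apart.

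The libraries held between 8268957 and 13816864 reads assigned to genes. Smooth muscle markers (Myh11, Acta2, Tagln, Cnn1, Smtn and Lmod1) summed to 14018 to 20142 CPM (reads of a gene scaled to a common library size) in control, 10327 to 20473 in orchiectomized and 19668 to 24499 in DHT aortas, as the label aorta requires. Other tissue was present too. The 5 mesothelial markers summed to 33.4 to 92.0 CPM in control, 44.8 to 374 in orchiectomized and 8.33 to 23.1 in DHT aortas, and neutrophil markers to 1.36 to 3.08, 8.32 to 1148 and 2.61 to 12.3 CPM. T cell markers summed to 3.47 to 12.8, 5.81 to 58.0 and 2.82 to 5.41 CPM and B cell markers to 3.75 to 9.59, 6.78 to 164 and 2.99 to 11.7 CPM in the same order of groups. Orchiectomized replicate 2 was the highest of the 15 libraries in the mesothelial, neutrophil and B cell sums. The hemoglobin genes were listed at 0 in all 15 libraries. Alas2, the other erythroid marker, ran from 4.68 CPM in control replicate 2 to 75.1 CPM in DHT replicate 3. The reason for the values of 0 was not tested.

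After genes with few reads were removed, 14121 were tested, all 10 among them. Together they drew 2791 to 11016 reads per library. The 4 resident-type genes were Mrc1, which encodes the mannose receptor CD206, Lyve1, a hyaluronan receptor, Cd163, the receptor that takes up hemoglobin bound to haptoglobin, and F13a1, the A subunit of the crosslinking enzyme factor XIII. The 3 pan-macrophage genes were Adgre1, which encodes the surface antigen F4/80, Csf1r, the receptor for CSF1 and IL-34, and Cd68, a lysosomal glycoprotein. The last 3 serve recognition and clearance of lipids, debris and dying cells: Trem2, a lipid-sensing receptor that signals through an adaptor with an activation motif, and C1qa and C1qb, which encode chains of complement C1q.

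In GENCODE M21 annotation of mm10, Mrc1 was at chr2:14229392-14332057 on the plus strand, Cd163 at chr6:124304656-124330527 (plus) and Lyve1 at chr7:110850607-110863239 (minus). F13a1 was at chr13:36867178-37050244 (minus), Adgre1 at chr17:57358691-57483527 (plus), Trem2 at chr17:48346401-48354147 (plus) and Cd68 at chr11:69664213-69666153 (minus). C1qa, at chr4:136895917-136898803, and C1qb, at chr4:136880129-136886187, were neighbours on the minus strand. F13a1 overlaps the antisense genes Gm49144 and Gm30489, Csf1r overlaps Hmgxb3 on the opposite strand, and Mrc1 hosts Mir511. Whether the counting used strand is not given in the sources used here, so reads of F13a1 and Csf1r may include reads of those neighbours.

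To show what sequence lies before a member of each kind, the 250 bases upstream of the RefSeq start (GRCm38.p6) are printed for Cd163 and Cd68, at -0.94 and -0.74 on the log2 scale with DHT against untreated orchiectomized aortas, and for Trem2 and C1qb, at -0.15 and -0.24. Capitals mark the core bound by PU.1 (GAGGAA, or TTCCTC on the other strand), the transcription factor that specifies macrophages, the half-site bound by the androgen receptor (AGAACA, or TGTTCT), and the half-site bound by MAF proteins (TGCTGA, or TCAGCA).
Cd163, chr6:124304401-124304650, plus strand: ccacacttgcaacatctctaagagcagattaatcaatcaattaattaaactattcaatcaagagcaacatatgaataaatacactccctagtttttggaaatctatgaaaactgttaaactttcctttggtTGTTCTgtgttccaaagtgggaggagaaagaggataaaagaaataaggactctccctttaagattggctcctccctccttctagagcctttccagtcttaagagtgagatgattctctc
Cd68, chr11:69666171-69666420, minus strand: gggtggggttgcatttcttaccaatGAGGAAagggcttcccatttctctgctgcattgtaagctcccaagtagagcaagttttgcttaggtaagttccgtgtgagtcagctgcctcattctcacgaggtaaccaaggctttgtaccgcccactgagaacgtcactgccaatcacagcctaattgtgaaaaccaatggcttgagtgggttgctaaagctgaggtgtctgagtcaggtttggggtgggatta
Trem2, chr17:48346151-48346400, plus strand: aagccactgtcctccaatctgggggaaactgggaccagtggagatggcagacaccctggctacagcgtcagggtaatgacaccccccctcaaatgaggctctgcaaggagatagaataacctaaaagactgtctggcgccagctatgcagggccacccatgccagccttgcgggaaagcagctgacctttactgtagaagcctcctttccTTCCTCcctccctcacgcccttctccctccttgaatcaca
C1qb, chr4:136886201-136886450, minus strand: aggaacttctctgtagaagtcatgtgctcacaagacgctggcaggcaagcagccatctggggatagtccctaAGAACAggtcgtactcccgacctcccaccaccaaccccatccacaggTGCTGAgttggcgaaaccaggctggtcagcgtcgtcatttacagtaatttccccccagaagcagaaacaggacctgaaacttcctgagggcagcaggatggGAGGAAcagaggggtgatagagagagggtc
The 7 promoters examined were of 6 of the 10 genes (Mrc1, Cd163, F13a1 with 2, Cd68, Trem2 and C1qb). Of these, 5 held the PU.1 core, 2 the androgen receptor half-site (Cd163 and C1qb) and 1 the MAF half-site (C1qb). Across all 32851 promoters of the same length, 23.3% held the PU.1 core on either strand, 16.1% the androgen receptor half-site and 16.1% the MAF half-site. No 2 of these motifs overlap in the sequences printed. The half-site was present in both Cd163 and C1qb, whose fold changes with DHT were on the log2 scale -0.94 and -0.24. These are matches of letters, not evidence of binding.

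Levels of different genes were set side by side as CPM per kilobase of the principal transcript. C1qa and C1qb were the highest in every group, at 110 ± 35.8 and 97.5 ± 30.3 CPM per kb in control aortas (SD, n = 5). F13a1 followed at 27.4 ± 10.7, and its control libraries did not overlap those of C1qb. From F13a1 on, each gene's control range overlapped that of the next one down: Lyve1 (18.9 ± 6.00), Csf1r (17.4 ± 5.68), Cd68 (12.4 ± 4.37), Mrc1 (11.8 ± 4.96), Cd163 (8.23 ± 4.08), Adgre1 (5.93 ± 2.89) and Trem2 (3.67 ± 1.36 CPM per kb). In orchiectomized aortas Adgre1 (7.23 ± 2.31 CPM per kb) was above Trem2 (3.68 ± 0.744) with no overlap. In DHT aortas Trem2 (3.32 ± 1.13) stood above Adgre1 (3.07 ± 1.11 CPM per kb) in mean, with overlapping ranges.

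**Figure D1:**
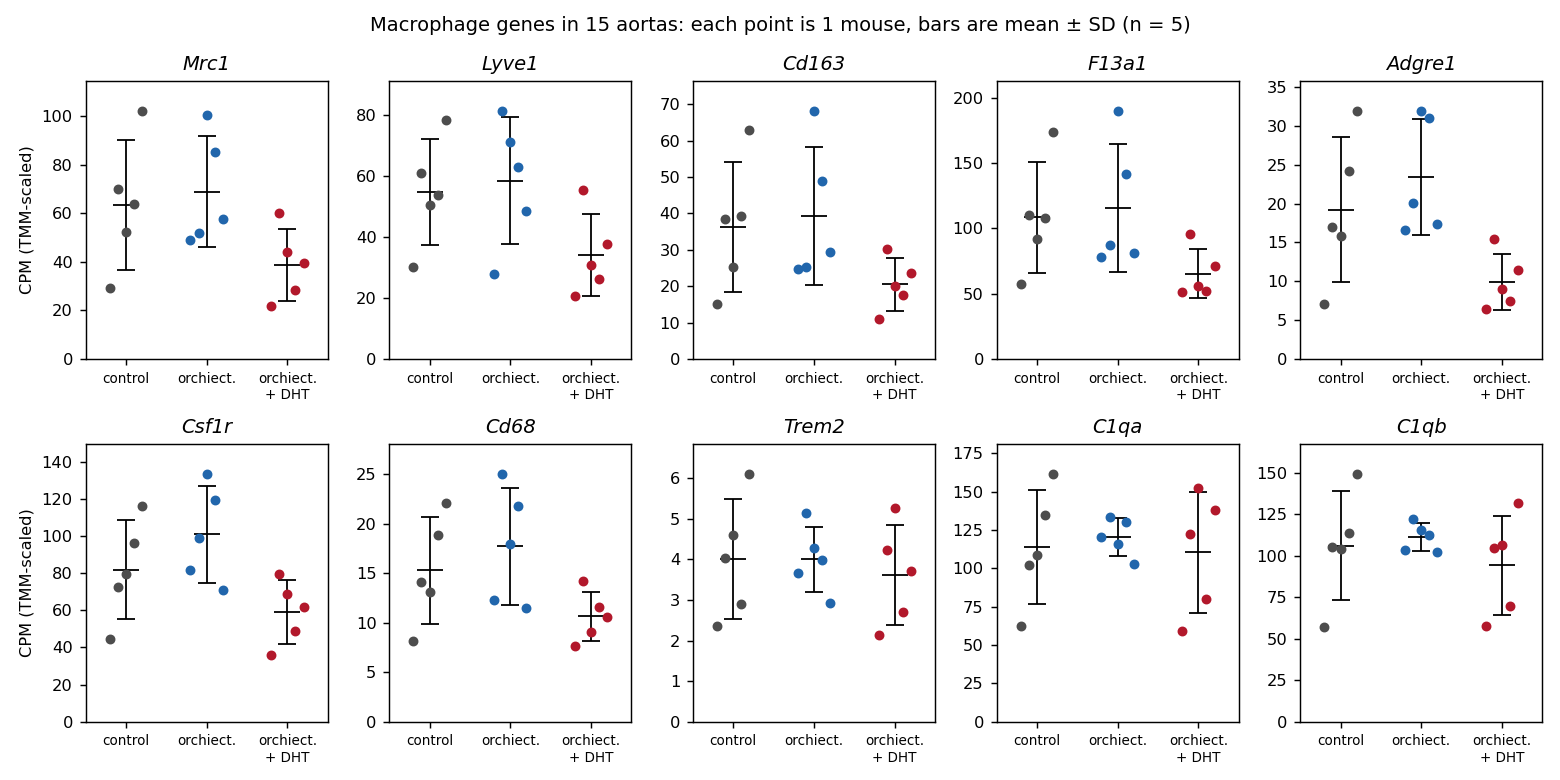
CPM of the 10 macrophage genes (y axis, from 0, own scale per gene) in control, orchiectomized and DHT-treated orchiectomized aortas. Points are single mice and bars the mean ± SD of 5, with replicates 1 to 5 from left to right in each group. All 5 DHT libraries of Adgre1 lie under all 5 orchiectomized libraries, whereas the ranges of Trem2, C1qa and C1qb overlap in all 3 groups.

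The first comparison, orchiectomized against control aortas, addressed what loss of testicular androgen did under Aldo-salt. None of the 10 genes passed the threshold, an unadjusted P under 0.01 in edgeR's quasi-likelihood test, where 3.22% of all tested genes did. None had an unadjusted P under 0.05 either, where 12% of all tested genes did. DESeq2 at an unadjusted P under 0.01 also called 0. Adjusted P values ranged from 0.644 to 0.997 (edgeR, Benjamini-Hochberg over 14121 genes).

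Csf1r had the largest fold change of the 10, 0.30 on the log2 scale (SE 0.26, 95% interval -0.24 to 0.85), and Adgre1 the next at 0.28 (SE 0.34, -0.44 to 1.01). The 4 resident-type genes lay between 0.09 (F13a1, interval -0.55 to 0.73) and 0.12 (Mrc1, -0.56 to 0.80), and Cd68 was at 0.21 (-0.37 to 0.79). Trem2 was at 0.00 (-0.61 to 0.62), C1qa at 0.08 (-0.46 to 0.62) and C1qb at 0.07 (-0.42 to 0.56). The widest upper end was that of Adgre1, and for the other 9 genes the intervals end lower. The median of the 10 fold changes was 0.11 and that of all tested genes 0.037 on the log2 scale. For all 10 genes the groups overlapped, where 1.51% of all tested genes had none. All 10 calls were the same under every other setting tried.

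The second comparison, DHT-treated against untreated orchiectomized aortas, addressed what restoring androgen did. Adgre1 and Csf1r were lower with DHT at an unadjusted P under 0.01, at 0.425-fold and 0.585-fold. They were 2 of 10 genes, beside 9.72% of all tested genes that passed in either direction and 7.27% that passed as lower. Neither had an adjusted P under 0.05 (edgeR), which 4.72% of all tested genes had. The fold changes of all 10 genes were negative, with a median of -0.77 on the log2 scale beside -0.022 for all tested genes, of which 53.3% were negative. At an unadjusted P under 0.05 there were 7 of 10 genes, all lower, where 21.2% of all tested genes were under 0.05 and 13.9% were so and lower. The other 3 were the clearance genes Trem2, C1qa and C1qb. The count of called genes rested on single libraries: it was 0 without orchiectomized replicate 3, orchiectomized replicate 4 or DHT replicate 4, and 1 without control replicate 2, 3 or 4, orchiectomized replicate 2, or DHT replicate 1, 3 or 5. It was 4 without control replicate 1 and 5 without DHT replicate 2.

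Adgre1 was measured at 16.6, 20.1, 31.9, 31.0 and 17.4 CPM in orchiectomized replicates 1 to 5 and at 6.41, 15.4, 8.97, 7.41 and 11.5 CPM in DHT replicates 1 to 5. The highest DHT library, replicate 2, was under the lowest orchiectomized library, replicate 1. Such separation occurred in 6.43% of all tested genes, with DHT lower in 4.34%. Control aortas held 7.06, 17.0, 15.9, 24.2 and 31.9 CPM and overlapped both ranges. Group means were 19.2 ± 9.36 CPM in control, 23.4 ± 7.47 in orchiectomized and 9.94 ± 3.61 in DHT aortas (SD, n = 5). The log2 fold change with DHT was -1.23 (SE 0.35, 95% interval -1.98 to -0.49, adjusted P = 0.0562 in edgeR). F4/80, its product, is the antigen most used to stain mouse macrophages. The call was lost without orchiectomized replicate 3 (-1.07), without orchiectomized replicate 4 (-1.08) and without DHT replicate 4 (-1.13), and held in the other 12 fits that left out 1 library. It was also lost with limma-voom quality weights (-0.96).

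Csf1r was measured at 81.6, 99.0, 134, 120 and 70.7 CPM in orchiectomized replicates 1 to 5 and at 35.9, 79.8, 68.8, 48.6 and 61.9 CPM in DHT replicates 1 to 5. Only DHT replicate 2 reached into the orchiectomized range, above orchiectomized replicate 5. Control libraries were at 44.5, 72.7, 79.7, 96.0 and 116 CPM. The log2 fold change with DHT was -0.77 (SE 0.26, 95% interval -1.32 to -0.23, adjusted P = 0.0971 in edgeR). The call was marginal: Csf1r passed in 4 of 15 fits that left out 1 library, with a fold change of -0.62 without orchiectomized replicate 3. With limma-voom quality weights, which weigh libraries by their spread, Csf1r was at -0.47 and not called.

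**Figure D2:**
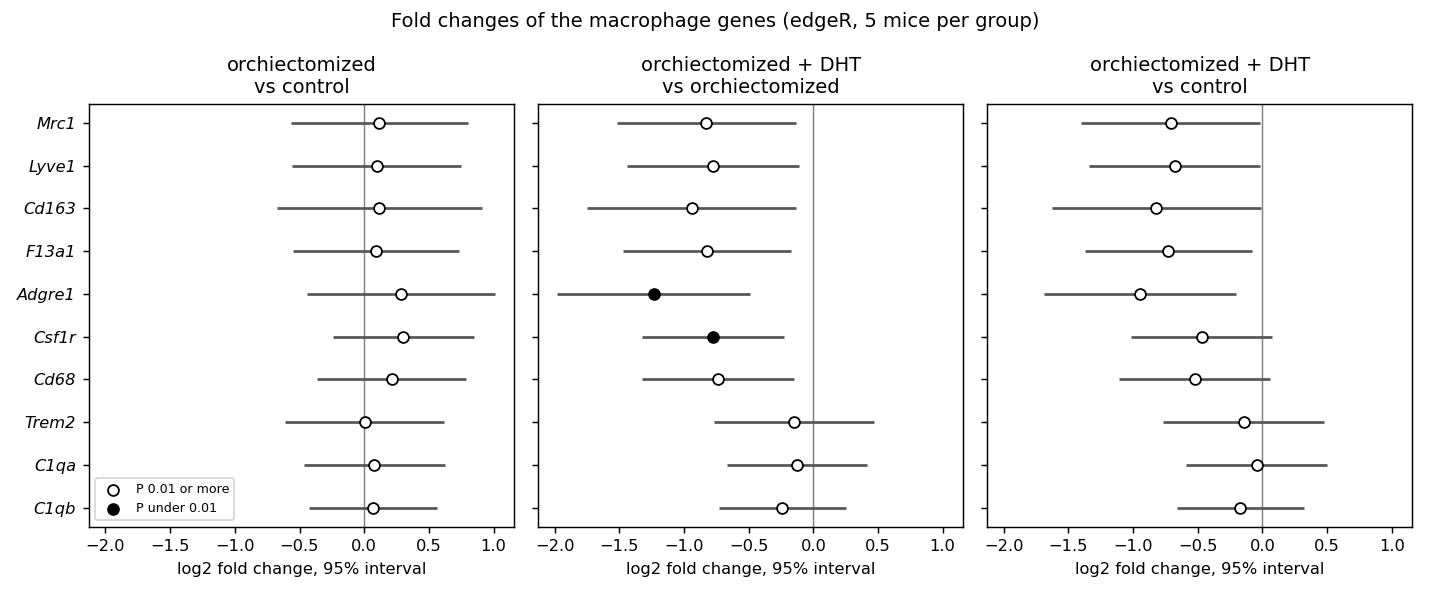
Log2 fold changes of the 10 genes (x axis) in the 3 comparisons from edgeR's quasi-likelihood fit, with 95% intervals as lines. Filled points mark an unadjusted P under 0.01, which Adgre1 (-1.23) and Csf1r (-0.77) reached between orchiectomized aortas with and without DHT; between orchiectomized and control aortas all 10 intervals include 0.

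Cd68, the third pan-macrophage gene, was measured at 12.3, 25, 17.9, 21.7 and 11.5 CPM in orchiectomized and at 7.61, 14.2, 9.10, 11.6 and 10.5 CPM in DHT replicates 1 to 5. DHT replicates 2 and 4 lay inside the orchiectomized range. Its log2 fold change was -0.74 (SE 0.27, interval -1.32 to -0.15, adjusted P = 0.133 in edgeR), and it did not pass the threshold. With voom quality weights it was at -0.36.

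The resident-type genes had fold changes of like size that did not pass in edgeR. Mrc1 was measured at 49.0, 52.0, 101, 85.2 and 57.5 CPM in orchiectomized and 21.8, 60.3, 44.1, 28.3 and 39.6 CPM in DHT replicates 1 to 5, so that 4 of 5 DHT libraries lay under all orchiectomized ones and replicate 2 did not. Its log2 fold change was -0.83 (SE 0.32, interval -1.52 to -0.14, adjusted P = 0.154 in edgeR). Cd163 had the largest fold change of the 4, -0.94 (SE 0.38, interval -1.75 to -0.13, adjusted P = 0.166 in edgeR). It was measured at 24.7, 25.4, 68.2, 48.9 and 29.4 CPM in orchiectomized and 10.9, 30.4, 20.1, 17.6 and 23.6 CPM in DHT aortas, and again DHT replicate 2 alone lay in the orchiectomized range.

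F13a1 was measured at 77.8, 87.2, 190, 141 and 80.7 CPM in orchiectomized and 51.6, 95.5, 55.9, 52.0 and 71.4 CPM in DHT replicates 1 to 5. The same library, DHT replicate 2, was the one that overlapped. The log2 fold change was -0.82 (SE 0.30, interval -1.47 to -0.18, adjusted P = 0.130 in edgeR). With DESeq2, F13a1 was at -0.79 and passed an unadjusted P under 0.01. Orchiectomized replicate 3 held the highest Mrc1, Cd163 and F13a1 of its group; without it the log2 fold changes were -0.63, -0.62 and -0.54. With voom quality weights F13a1 was at -0.48.

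Lyve1 was measured at 28.0, 81.2, 71.1, 63.0 and 48.5 CPM in orchiectomized and 20.5, 55.4, 30.9, 26 and 37.5 CPM in DHT replicates 1 to 5. Orchiectomized replicates 1 and 5 lay inside the DHT range. The log2 fold change was -0.78 (SE 0.31, interval -1.44 to -0.11, adjusted P = 0.164 in edgeR), and -0.46 with voom quality weights. Lyve1 is also a marker of lymphatic endothelium, whose other markers (Prox1, Flt4, Mmrn1, Pdpn and Reln) summed to 50.0 to 89.2 CPM in control, 47.0 to 174 in orchiectomized and 33.6 to 87.2 in DHT aortas, while Ccl21a was listed at 0 in all 15 libraries. Of those 5, only Pdpn was called, as lower with DHT, and their part in the Lyve1 values was not tested.

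The clearance genes differed little in mean. C1qa was measured at 120, 133, 116, 130 and 103 CPM in orchiectomized and 59.3, 123, 153, 80.2 and 138 CPM in DHT replicates 1 to 5. Of the DHT libraries 2 lay under the orchiectomized range, 2 above it and 1 within it. The log2 fold change was -0.12 (SE 0.25, interval -0.67 to 0.42, adjusted P = 0.828 in edgeR).

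C1qb was measured at 103, 122, 116, 113 and 102 CPM in orchiectomized and 58.0, 105, 107, 70.0 and 132 CPM in DHT replicates 1 to 5, with a log2 fold change of -0.24 (SE 0.23, interval -0.73 to 0.25, adjusted P = 0.592 in edgeR). The orchiectomized aortas were close to one another in both C1q genes, with coefficients of variation of 10.1% (C1qa) and 7.63% (C1qb), whereas those of control and DHT aortas lay between 31.0% and 35.6%. Trem2, the lowest of the 10 genes with 22 to 67 reads per library, was at 4.0 ± 0.81 CPM in orchiectomized and 3.61 ± 1.23 in DHT aortas (SD, n = 5), a log2 fold change of -0.15 (SE 0.29, interval -0.77 to 0.47). The intervals of these 3 genes include both 0 and, for each, falls of more than 0.6 on the log2 scale, so a fall like that of Csf1r (-0.77) lies at or just beyond their lower ends.

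Markers of other cells moved with this comparison. All 5 mesothelial markers were called as lower with DHT (unadjusted P under 0.01, edgeR), as were 2 of 3 tested dendritic cell, 2 of 5 endothelial, 1 of 5 mast cell and 1 of 5 fibroblast markers. Of 8 neutrophil markers 4 had too few reads to be tested and 3 passed the filter on low counts only through the orchiectomized libraries, which left 1, called as lower. Likewise 2 of 6 T cell and 4 of 6 B cell markers passed only through those libraries and 1 T cell marker was not tested; the other 3 T cell and 2 B cell markers were called as lower. A marker that passed only in this way had to be higher there, and is not counted as called. None of 4 platelet and none of 6 smooth muscle markers was called, the latter all with positive fold changes of 0.38 to 0.53 on the log2 scale, 5 of them at an unadjusted P under 0.05. Of 3 skeletal muscle markers 1 was called, as higher, and their sum had a median of 6.24 CPM in orchiectomized and 122 in DHT aortas. The part of these cells in the values of the 10 genes was not tested. Without orchiectomized replicate 2, in which neutrophil, B cell and mesothelial markers were highest, Adgre1 was at -1.27 and Csf1r at -0.77, Adgre1 being called and Csf1r not.

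The third comparison, DHT-treated orchiectomized against control aortas, addressed how restored androgen compared with intact testes. None of the 10 genes passed an unadjusted P under 0.01 in edgeR, where 3.53% of all tested genes did, and 5 were under 0.05, where 11.8% of all tested genes were. At the same threshold DESeq2 called 1, Adgre1. All 10 fold changes were negative, with a median of -0.60 beside -0.003 for all tested genes on the log2 scale. The DHT libraries entered this comparison and the previous one, and the control libraries this one and the first, so the 3 are not independent. Of other markers, 4 of 5 mesothelial, 2 of 5 endothelial and 2 of 5 fibroblast markers were called as lower with DHT than in control, and 2 of 4 neutrophil markers as higher. Their part in the values of the 10 genes or of the lists was not tested.

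Adgre1 again had the largest fold change, -0.95 on the log2 scale (SE 0.35, interval -1.69 to -0.21, adjusted P = 0.331 in edgeR). Cd163 was at -0.82 (interval -1.63 to -0.01), F13a1 at -0.73 (-1.38 to -0.08), Mrc1 at -0.71 (-1.40 to -0.02) and Lyve1 at -0.68 (-1.34 to -0.02). Csf1r was at -0.47 (-1.02 to 0.08) and Cd68 at -0.52 (-1.11 to 0.06). Trem2 was at -0.15 (-0.77 to 0.47), C1qa at -0.05 (-0.59 to 0.50) and C1qb at -0.17 (-0.66 to 0.32). The DHT and control ranges overlapped in all 10 genes, where 3.58% of all tested genes had no overlap.

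Control replicate 1 decided much of this comparison. It was the lowest control library in all 10 genes, at 29.2 CPM for Mrc1 where the other controls held 52.3 to 102, at 44.5 CPM for Csf1r where they held 72.7 to 116, and at 62.5 CPM for C1qa where they held 102 to 162. Without it, 3 genes were called as lower with DHT: Adgre1 (-1.16), Mrc1 (-0.89) and F13a1 (-0.89). Without DHT replicate 2, the highest DHT library for the 7 resident-type and pan-macrophage genes, Adgre1 (-1.17) and Lyve1 (-0.93) were called. Without control replicate 5, the highest control library, Mrc1 was at -0.47, Cd163 at -0.53 and Csf1r at -0.31, and Csf1r was at -0.30 with voom quality weights.

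**Figure D3:**
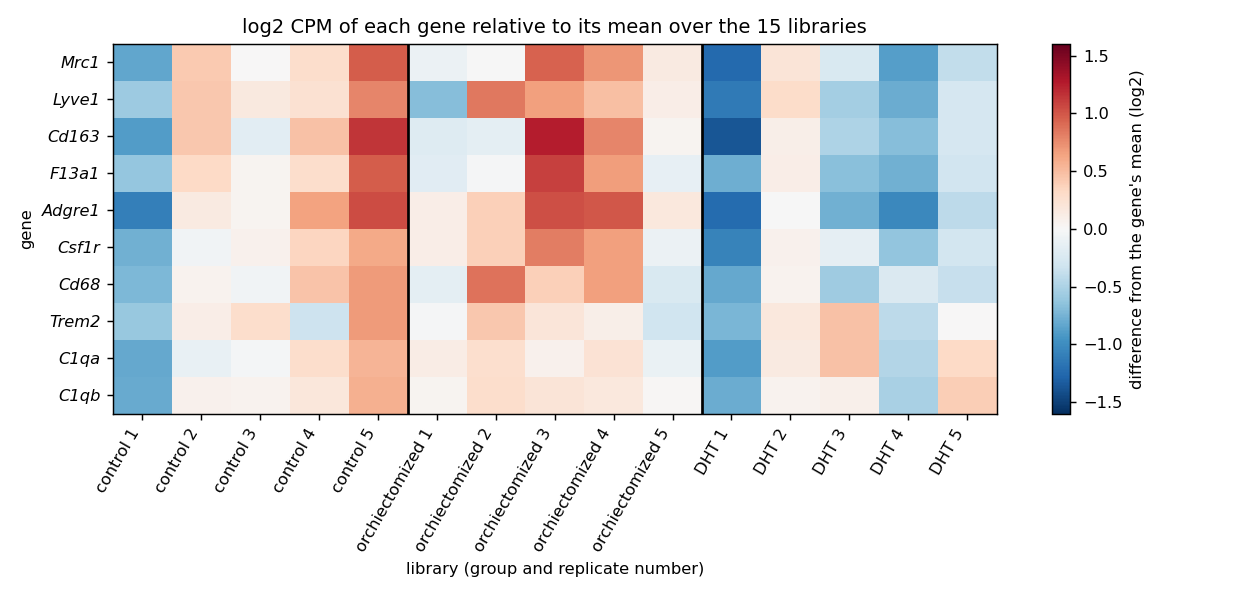
Log2 CPM of each of the 10 genes (rows) in each of the 15 libraries (columns), as the difference from the gene's mean over all libraries. Columns are mostly of one colour from top to bottom, with control replicate 1 and DHT replicate 1 low in all 10 genes and control replicate 5 high in all 10; in DHT replicates 3 and 5 the lower rows, Trem2, C1qa and C1qb, are apart from the upper ones.

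The 10 genes varied together from library to library. Over the 15 libraries, which share the group differences and the 2 low libraries, Pearson's r of log2 CPM was 0.98 for Mrc1 with Cd163 (Spearman's rho 0.98), 0.96 for Adgre1 with Csf1r and 0.95 for C1qa with C1qb. It was lower between the clearance genes and the others, between 0.55 (C1qa with F13a1) and 0.83 (C1qb with Csf1r). Without the 2 libraries farthest from the Mrc1 median, DHT replicate 1 and control replicate 5, r of Mrc1 with Cd163 was 0.96. The libraries left out were chosen by the first gene of each pair and so differed between pairs. Adgre1 with C1qa went from 0.67 to 0.38 without DHT replicate 1 and control replicate 1. Cd163 with C1qa went from 0.66 to 0.68 without orchiectomized replicate 3 and control replicate 5, so these changes cannot be compared. All other pairs of a clearance gene with a resident-type or pan-macrophage gene were lower without the libraries left out. These are descriptions of 15 samples, with no test.

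The genes most like the mean profile of the 10, by Pearson's r over the 15 libraries among 14111 other tested genes, included Folr2 (0.965), Fcgr3 (0.962), Fcrls (0.959) and C5ar1 (0.953). Without control replicate 1 and DHT replicate 1, farthest from the median of that profile, r was 0.906 to 0.931 for these 4. With all libraries, 31 genes had r above 0.9. Folr2 is a folate receptor of resident macrophages, Fcgr3 an Fc receptor for IgG and C5ar1 the receptor for the complement fragment C5a. With DHT their log2 fold changes were -0.60, -0.71, -0.79 and -0.76 in the same order, and only C5ar1 passed the threshold (adjusted P = 0.0989 in edgeR).

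Each gene was also expressed relative to Csf1r, as the log2 ratio of CPM within a library. Csf1r was chosen for this after its values were seen, as the pan-macrophage gene with the most reads, and the ratios were not tested. C1qa relative to Csf1r was 0.48 ± 0.019 in control aortas (range 0.45 to 0.49), 0.29 ± 0.33 in orchiectomized (-0.21 to 0.56) and 0.87 ± 0.26 in DHT aortas (0.62 to 1.15; SD, n = 5). All DHT libraries were thus above all others, and the 5 control libraries were within 0.05 of one another although their C1qa levels ran from 62.5 to 162 CPM.

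Trem2 relative to Csf1r was -4.64 ± 0.29 in orchiectomized and -4.05 ± 0.20 in DHT aortas, also with no overlap, and C1qb was 0.18 ± 0.31 and 0.67 ± 0.26 with overlap. Adgre1 relative to Csf1r was lower in DHT aortas (-2.59 ± 0.23) than in orchiectomized ones (-2.13 ± 0.16), again with no overlap. The ratios of Mrc1, Lyve1, Cd163, F13a1 and Cd68 differed between those groups by -0.11 to 0.09. Of all other tested genes, 7.79% had ratios to Csf1r in DHT aortas above all those of orchiectomized aortas and 0.361% had them below, and against control aortas 0.8% lay above, as C1qa did. A ratio of this kind shows unequal change and not which of the pair changed.

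**Figure D4:**
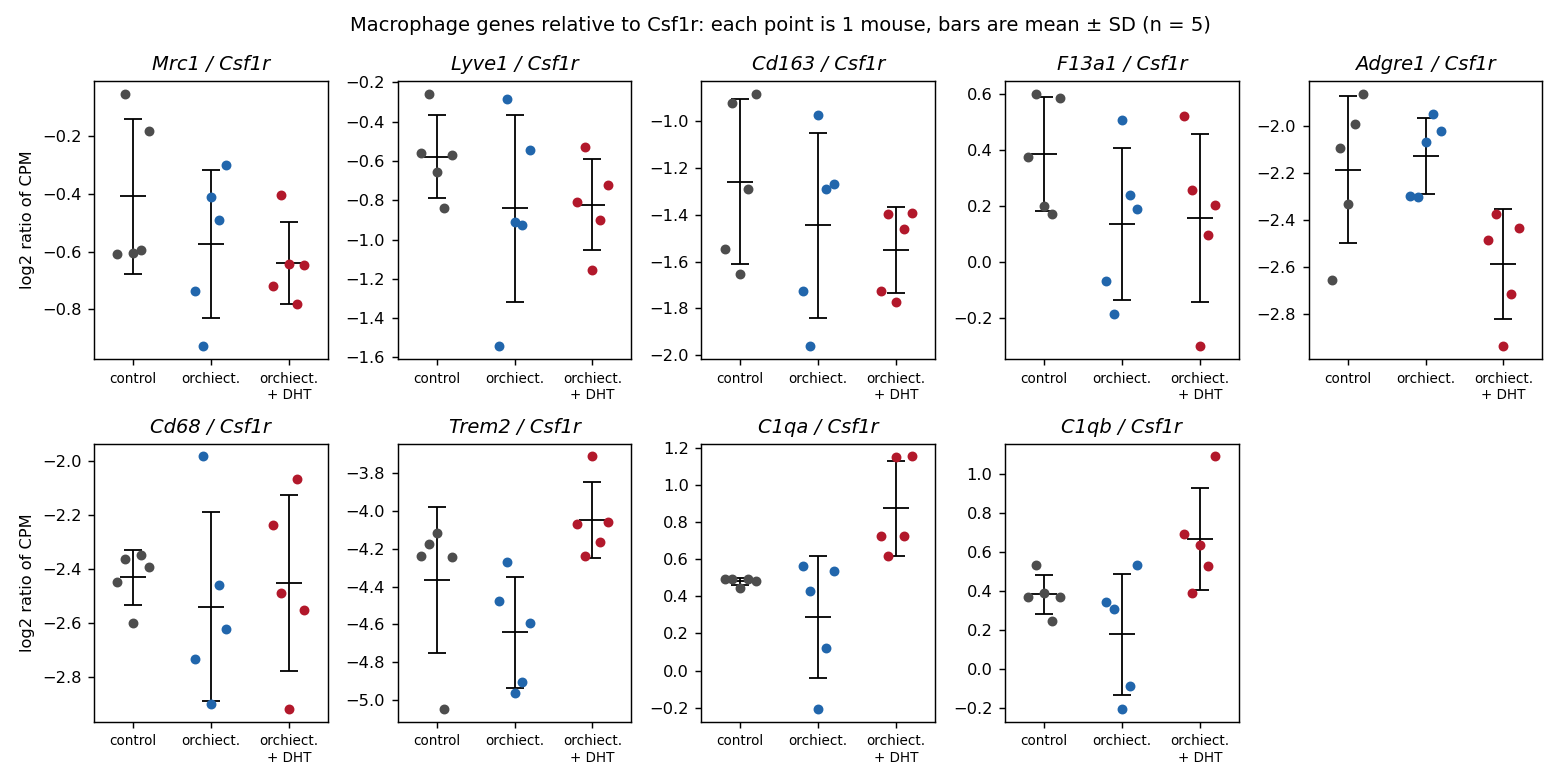
Log2 ratio of the CPM of 9 macrophage genes to that of Csf1r in the same library (y axis, own scale per gene), with points for single mice and bars for the mean ± SD of 5. The ratios of C1qa and Trem2 in DHT aortas lie above all orchiectomized aortas, those of Adgre1 below, and the 5 control ratios of C1qa fall between 0.45 and 0.49.

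Beyond the 10 genes, 8 lists of macrophage genes held 95 further genes, of which 84 passed the filter. In orchiectomized against control aortas 7 of the 84 were called, all higher, beside 3.22% of all tested genes in either direction, and none had an adjusted P under 0.05 (edgeR; DESeq2 gave 2). Of the 84, 5 passed the filter only through the orchiectomized libraries, Ly6c2 and Mmp12 among them, so that a higher value there was a condition of their being tested; the other 79 held 6 of the 7 calls. Among markers of other leukocytes that passed otherwise, 1 of 1 for neutrophils, 2 of 2 for B cells and 2 of 3 for T cells were called higher as well. None of 5 mast cell and none of 3 tested dendritic cell markers was called. Of other markers, 1 of 7 for adipocytes and 1 of 3 for skeletal muscle were called lower. The part of all these cells in the values of the list genes was not tested. The monocyte genes were Ccr2, the receptor for the chemokine CCL2 (0.90 on the log2 scale), and Chil3, a chitinase-like protein (3.96). Ly6c2, a surface antigen of inflammatory monocytes, was at 2.63, given as a description. The others were Itgax, the integrin CD11c of dendritic cells and lipid-laden macrophages (2.01), Irf8, a transcription factor of monocytes and dendritic cells (1.25), Ptprc, the leukocyte antigen CD45 (1.24), and Mpeg1, the pore-forming perforin-2 (1.09). The median of the 84 was 0.27 on the log2 scale. Orchiectomized replicate 2 carried much of this: without it Chil3 was at 1.01, Ccr2 at 0.59, Irf8 at 0.61 and Mpeg1 at 0.68 and none of these 4 was called, nor was Ptprc at 1.02, while Itgax (1.28) was. The count was 3 without control replicate 1 or 3 or orchiectomized replicate 2 or 4 (2 higher and 1 lower without orchiectomized replicate 2), 4 without control replicate 2 or DHT replicate 5, and 11 without orchiectomized replicate 1.

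In DHT-treated against untreated orchiectomized aortas 32 of the 84 list genes were called, 31 lower and 1 higher, and 21 had an adjusted P under 0.05 (edgeR). Among all tested genes 9.72% were called, 7.27% as lower, and 4.72% had an adjusted P under 0.05. Without the 5 genes that passed only through the orchiectomized libraries, 29 of 79 were lower and 1 higher. The median of the 84 was -0.71 on the log2 scale. Without orchiectomized replicate 2 the count was 27.

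Of 16 further resident macrophage genes 1 (6.25%) was lower, near the 7.27% of all tested genes called as lower. It was Mgl2, a galactose-binding lectin (-1.02, adjusted P = 0.0781 in edgeR). Negative fold changes were found in 14 of the 16, and in 53.3% of all tested genes. Of 10 inflammatory genes 4 were lower. Ccr2 went from 21.8 ± 10.6 CPM in orchiectomized to 6.73 ± 1.52 in DHT aortas (SD, n = 5), without overlap (-1.69, adjusted P = 0.0106 in edgeR). Its ligand Ccl2 was at -1.26. Ly6c2, which passed the filter only through the orchiectomized libraries, was at -2.61. The cytokine genes Il1b, Tnf and Il6 had too few reads to be tested.

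Of 11 genes of lipid-associated macrophages 6 were lower, led by Itgax (-2.99) and Spp1, which encodes osteopontin (-1.62), with adjusted P values of 0.00864 and 0.020 (edgeR). Without orchiectomized replicate 2, Itgax was at -2.26 and Spp1 at -1.37, both still called. Mmp12, the macrophage elastase, was 1 of the 6 but passed the filter only through the orchiectomized libraries; it was at 2.03 ± 0.659 CPM in orchiectomized and 0.510 ± 0.294 in DHT aortas (SD, n = 5). Trem2 belongs to the same programme by its known expression, and its log2 fold change was -0.15.

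Of 10 genes of the CSF1 pathway 3 were lower, among them the transcription factor Irf8 (-1.72) and the GM-CSF receptor subunit Csf2ra (-0.76). Without orchiectomized replicate 2, Irf8 was at -1.07 and Csf2ra at -0.52, both still called. The ligands of the CSF1 receptor, Csf1 (-0.07) and Il34 (-0.58), were not called. Of 8 adaptor and Fc receptor genes 3 were lower: Fcgr2b, the inhibitory IgG receptor (-1.07), the phospholipase Plcg2 (-1.10) and the kinase Syk (-1.24). Tyrobp, which encodes the adaptor through which Trem2 signals, was at -0.76 and not called.

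Of 8 genes of the classical complement pathway and its receptors 4 were lower, among them the proteases C1ra (-0.81, adjusted P = 0.0144 in edgeR), C1s1 (-0.79) and C2 (-0.90). C1ra went from 127 ± 19.6 CPM in orchiectomized to 72.2 ± 16.6 in DHT aortas with no overlap. C1qc, the third chain of C1q, was at -0.33 and was not called, as was the case for C1qa and C1qb. The genes C1ra and C1s1 are also expressed by fibroblasts.

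Of 9 scavenger and heme handling genes 1 was lower, Clec7a, the beta-glucan receptor dectin-1 (-2.12), and 1 was higher, Hp, which encodes haptoglobin (1.13, adjusted P = 0.0470 in edgeR), the plasma protein whose complex with hemoglobin CD163 takes up. Hp is also made in fat and was at 269 ± 115 CPM in orchiectomized and 589 ± 173 in DHT aortas (SD, n = 5). Of 12 pan-leukocyte and myeloid genes 9 were lower, the largest count of the 8 lists, with Ptprc at -2.20, Cd53 at -1.85 and Lcp1, the actin bundler L-plastin, at -1.37. T cells and B cells express Ptprc, Cd53 and Lcp1 as well, and their markers moved in the same direction.

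**Figure D5:**
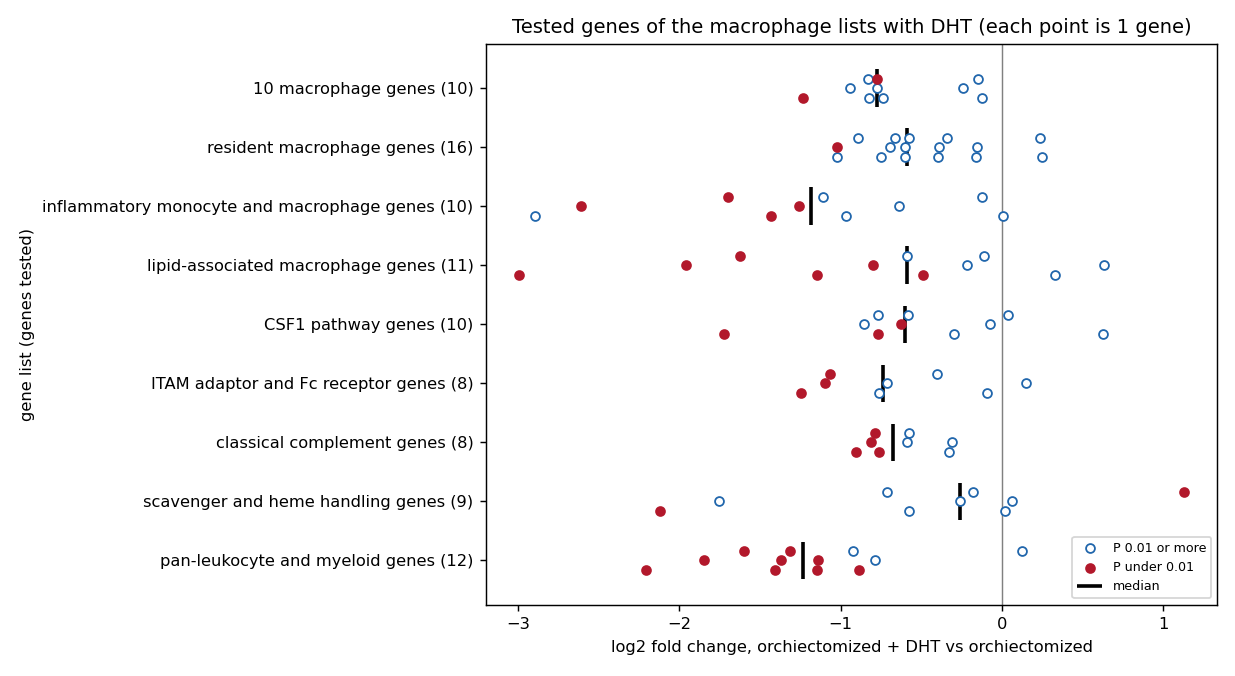
Log2 fold changes (x axis) of every tested gene in the 10 macrophage genes and in 8 further lists (y axis, number tested in parentheses), DHT-treated against untreated orchiectomized aortas. Red points passed an unadjusted P under 0.01 and black lines are list medians; 9 of 12 pan-leukocyte genes passed against 1 of 16 further resident macrophage genes.

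In DHT-treated orchiectomized against control aortas 4 of the 84 list genes were called, all lower, none at an adjusted P under 0.05 (edgeR; DESeq2 gave 2), and 20 had an unadjusted P under 0.05. Among all tested genes 3.53% were called and 11.8% had an unadjusted P under 0.05, so the count of 4 was near the background. The called genes included the monocyte chemokines Ccl2 (-1.43) and Ccl7 (-1.54) and Spp1 (-1.04). Ccl2 was at 4.90 ± 0.729 CPM in control and 1.82 ± 0.692 in DHT aortas (SD, n = 5), with no overlap. Ly6c2 was at 0.02 on the log2 scale and Ccr2 at -0.80. The median of the 84 genes was -0.39, and the count of called genes was 11 without control replicate 1, 7 without DHT replicate 2 and 2 without control replicate 2 or 4.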

How the data were processed

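RNA-Seq libraries from 15 aortas were grouped as control, orchiectomized and DHT by their labels (n = 5 each), 1 aorta per library. The deposited values are raw counts of reads, 1 row for each gene symbol, not normalized, from poly(A)-selected RNA. The submitters' processing notes name STAR, Cufflinks, DESeq2 and mm10; the counting program, annotation and strand setting are not given in the sources used here. Reads outside genes (6.26% to 14.4%) and ambiguous reads (1.34% to 1.97%) were left out. No column was left unmapped.

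Genes were filtered with filterByExpr (minimum count 10, minimum total 15), scaled by TMM and tested in one 3-group model with edgeR 4.0.16 (R 4.3.3), quasi-likelihood F test, two-sided, by comparison. The call was an unadjusted P under 0.01, with Benjamini-Hochberg adjustment over all 14121 genes. CPM used TMM library sizes, and log2 CPM a prior count of 3. A count of 10 equals 0.906 CPM in the median library, and the biological coefficient of variation was 0.297. Replicate libraries differed by more than sampling noise (chi-square per degree of freedom at least 12.0). The script was checked on simulated counts. Figures used matplotlib.

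The 10 genes and all lists were chosen with earlier results of these data known. Named genes were the 10, up to 3 called genes of smallest P per list and comparison, and the 5 most correlated genes, apart from items that are not reported here; genes named with values outside this rule (Pdpn, C1qc, Tyrobp, Csf1, Il34) were chosen after their values were seen. Alternatives were DESeq2 1.42.0, RLE scaling, other filters, the 2 groups alone, a replicate block, voom weights (limma 3.58.1), adjusted P, and leaving out each library.

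Replicate numbers come from the sample titles. Over 15 same-number pairs the median correlation of deviations was 0.017 (-0.466 to 0.463) and 5 exceeded 0.1. Pairs of different number had a median of 0.027. Medians over all pairs cannot exclude pairing, so whether the numbers pair the mice is not known. In the mean profile of the macrophage genes, replicate 1 was the lowest library of each group. It was at -0.77 in control, -0.097 in orchiectomized and -1.01 in DHT aortas (log2 CPM, as the difference from the mean over all libraries).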

Additional observations from a re-analysis of the deposited data

How the results depend on the processing

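Among the 10 genes, 2 were called with DHT against untreated orchiectomized aortas, and 1 was called with RLE scaling, with all genes of at least 1 count and with at least 10 counts in every library, 0 with voom weights and 0 at an adjusted P under 0.05 in edgeR (1 in DESeq2, as lower), and 0 to 5 without 1 library. At an unadjusted P under 0.01 DESeq2 called F13a1 (-0.79) as well as Adgre1 and Csf1r. Against control, where 0 were called, DESeq2 called 1 and leaving out 1 library 0 to 3. Of the list genes, 7 were called in orchiectomized against control aortas, 3 with at least 10 counts, 3 with only the 2 groups, 4 with voom weights, 0 at an adjusted P in edgeR (2 in DESeq2) and 3 to 11 without 1 library; 32 with DHT against untreated, 21 at an adjusted P in edgeR (30 in DESeq2) and 23 to 35 without 1 library; 4 with DHT against control, 2 with at least 10 counts, 7 with only the 2 groups, 0 at an adjusted P in edgeR (2 in DESeq2) and 2 to 11 without 1 library. Except where the filter or the number of samples differs, the cause was not tested.

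Whether the replicate numbers pair the mice is not known. With the replicate number as a block, 5 of the 10 genes were called with DHT against untreated, 1 (Lyve1) with DHT against control and 8 list genes in that last comparison.

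Signs turned only in small, uncalled fold changes (38 fits, each under 0.2 in size on the log2 scale, smallest P 0.540 in edgeR or the alternative tool). In orchiectomized against control, voom weights gave Lyve1 -0.067, F13a1 -0.091, Cd68 -0.011 and Trem2 -0.17, and Trem2 was -0.018 with DESeq2, -0.020 with RLE scaling, -0.042 with all genes, -0.0042 with at least 10 counts and -0.021 with the 2 groups. Voom weights gave Trem2 0.10 with DHT against untreated and C1qa 0.067 against control. Leaving out 1 library gave Mrc1 -0.077 to 0.35, Lyve1 -0.058 to 0.26, Cd163 -0.19 to 0.41, F13a1 -0.18 to 0.33, Trem2 -0.14 to 0.21, C1qa -0.077 to 0.24 and C1qb -0.089 to 0.22 in orchiectomized against control, C1qa -0.25 to 0.035 with DHT against untreated, and Trem2 -0.32 to 0.058 and C1qa -0.20 to 0.11 with DHT against control. The 32 results on named list genes kept their sign in 696 of 696 fits and their call in 597.

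Depth limits Trem2 most, with as few as 22 reads in a library.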
